A study of Homo sapiens with 6 samples.

Results

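The regions described are the loci of 8 human genes that write, guide or remove DNA methylation, namely DNMT1, DNMT3B, DNMT3A, DNMT3L, UHRF1, TET1, TET2 and TET3. Each locus was taken as the gene's hg19 interval, given to the nearest 10 kb, with 100 kb added on each side. The 8 loci held 122 bins of 20 kb, out of 140474 bins of the genome that both compartment tracks share. Hi-C, which joins and sequences DNA ends lying close together in cross-linked nuclei, was performed on DKO1, a derivative of HCT116 with both DNMT1 and DNMT3B knocked out, and on the parental line, labelled HCT116 WT. HCT116 is a widely used line of human colorectal cancer cells, and both lines were grown in the same medium with no treatment given in the labels. Each line had 3 libraries, but their labels name the same files, so the values are 1 pooled compartment track and 1 pooled domain list per line. No value below has a replicate error and no p-value was computed, so each difference is between these 2 maps. SDs given with PC1 values are over neighbouring bins of a locus, which are not replicates. DKO1 is a single derived line, so the effect of the knockouts and any other difference between the lines cannot be told apart.

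In mammals DNMT1 copies methylation onto newly replicated DNA, and UHRF1 brings it to hemimethylated CpG sites. DNMT3A and DNMT3B place methylation at sites that had none, and DNMT3L, which has no catalytic activity of its own, stimulates both, mainly in germ cells. TET1, TET2 and TET3 oxidise 5-methylcytosine and so start its removal. Most DNA methylation is known to be missing from DKO1, which keeps some of a truncated DNMT1 protein. Compartment A is the open, gene-rich part of the genome and compartment B the more closed part, and the sign of PC1, the first principal component of the contact map, separates them. A domain is a segment whose chromatin makes more contacts within itself than across its ends.

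An annotated start of each of the 2 disrupted genes is shown because CpG pairs are the sites at which their products act. RefSeq sequence on GRCh38.p14 was used for this, covering 250 bases before to 50 bases after an annotated start. It is printed 5′ to 3′ on the strand of the gene with each CpG in capitals, and was not placed on the hg19 tracks. The DNMT1 window is chr19:10194904-10195203 on the minus strand, and the DNMT3B window is chr20:32779602-32779901 on the plus strand.
DNMT1: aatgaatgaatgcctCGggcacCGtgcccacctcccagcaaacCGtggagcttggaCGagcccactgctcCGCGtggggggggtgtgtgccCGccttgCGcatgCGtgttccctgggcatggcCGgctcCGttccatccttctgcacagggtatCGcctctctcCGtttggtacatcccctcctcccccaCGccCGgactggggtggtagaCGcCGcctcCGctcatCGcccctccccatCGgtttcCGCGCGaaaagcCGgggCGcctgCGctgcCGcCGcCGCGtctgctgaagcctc
DNMT3B: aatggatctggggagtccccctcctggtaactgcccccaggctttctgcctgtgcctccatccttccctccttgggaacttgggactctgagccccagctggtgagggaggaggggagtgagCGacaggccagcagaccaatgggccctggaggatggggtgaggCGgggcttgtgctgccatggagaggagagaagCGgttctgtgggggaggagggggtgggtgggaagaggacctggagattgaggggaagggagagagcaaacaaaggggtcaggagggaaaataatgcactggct
The DNMT1 window held 30 CpG, a number reached by 22.4% of the 35116 windows in the table, and the DNMT3B window held 3, reached by 81.8% of them. The letters searched were CG, which read the same on both strands, and the median of all windows was 14. Of the 8 genes, 7 had at least 1 window, and among their 18 windows the number ran between 3 and 46. UHRF1 had 3 windows with 36 to 46 CpG and TET3 had 2 with 33 and 45, while the 3 windows of TET1 held 6 to 11. The 6 windows of DNMT3A held 18 to 46, and the 2 of TET2 held 13 and 35. These counts describe the sequence only. DNMT1 and DNMT3B had 1 window each, so either count belongs to that window and not to every start of the gene. Whether either window lies at the main start of its gene was not determined. The counts of 30 and 3 therefore do not compare the main promoters of the 2 genes. A 20 kb bin does not resolve a promoter, and methylation was not analysed here.

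The loci of 7 of the 8 genes lay in compartment A in both lines, in every one of their 104 bins, and the exception was TET2. PC1 in the files has a mean of 0 and an SD of 1 within each chromosome from 1 to 22 and X, so a value is in SDs of its own chromosome. Positive PC1 was found in 114 of the 122 bins in DKO1 and in 109 in HCT116. These shares were 93.4% and 89.3%, against 48.6% of all shared bins in DKO1 and 53.8% in HCT116. No bin outside TET2 was lower than 0.58 in DKO1 or 0.26 in HCT116. The mean PC1 of a locus had a median over the 8 loci of 1.05 in DKO1 and 1.02 in HCT116. The sign of the mean differed between the lines at TET2 alone, where it lay close to 0 in both and turned with wider flanks.

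**Figure D1:**
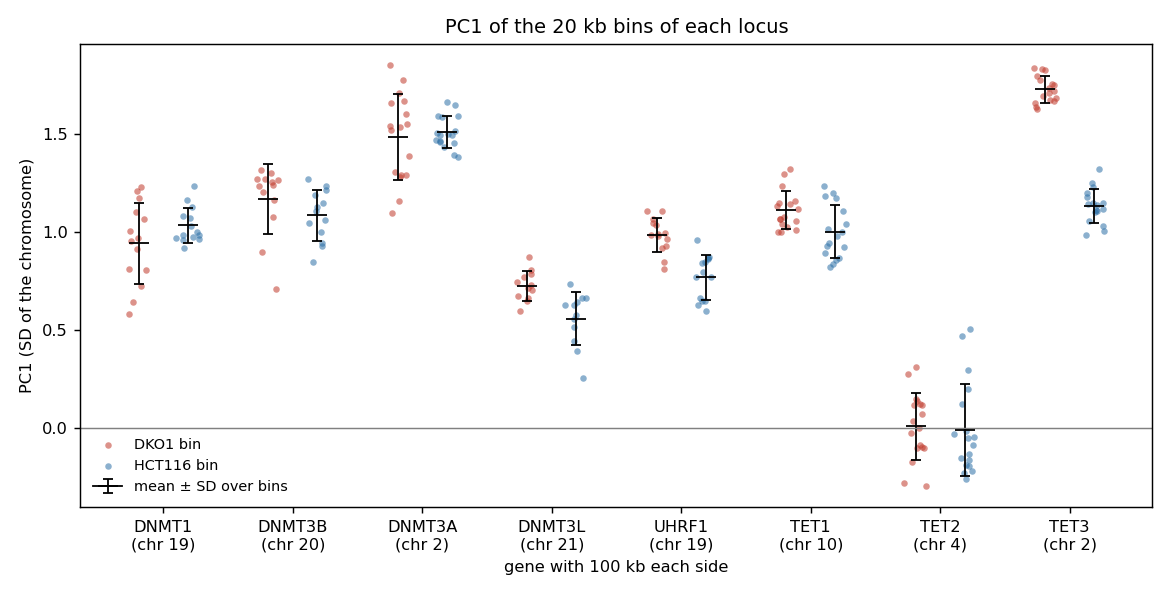
PC1 of every 20 kb bin of the 8 loci, in SDs of the chromosome, with DKO1 to the left of HCT116 at each locus. Points are bins, and black bars are the mean and SD over the bins of a locus, which are neighbours and not replicates. The bins of TET3 do not overlap between the lines, a trait that was not counted in other windows. The bins of TET2 lie on both sides of 0 in both.

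Differences in PC1 between the lines were small at most of these loci and were largest at TET3. Of the 8 loci, 6 had a higher mean in DKO1 and 2 a lower one, whereas 50.6% of all shared bins were higher in DKO1. Once each chromosome's median was subtracted, 7 loci were higher, but the median difference over all shared bins then also rose, to 0.14. Such small counts do not set the loci apart. The difference, DKO1 minus HCT116, had a median of 0.098 over the 8 loci, beside a median of 0.0069 over all shared bins. A difference of at least 0.5 was found in 14 of the 122 bins (11.5%), of which 13 were at TET3, against 14.9% of all shared bins. A difference of -0.5 or lower was found in 1 bin, at TET2, against 16.3% of all shared bins. The mean difference exceeded the SD of the difference over bins at 3 loci, namely TET3, UHRF1 and DNMT3L, the last by 0.168 against 0.166. How many other windows pass this mark was not counted, and neighbouring bins are alike, so it is no measure of error. A larger absolute difference was found in 9.58% of windows of equal length on the chromosome of TET3. The share was 26.0% for UHRF1 and 58.7% for DNMT3L.

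**Figure D2:**
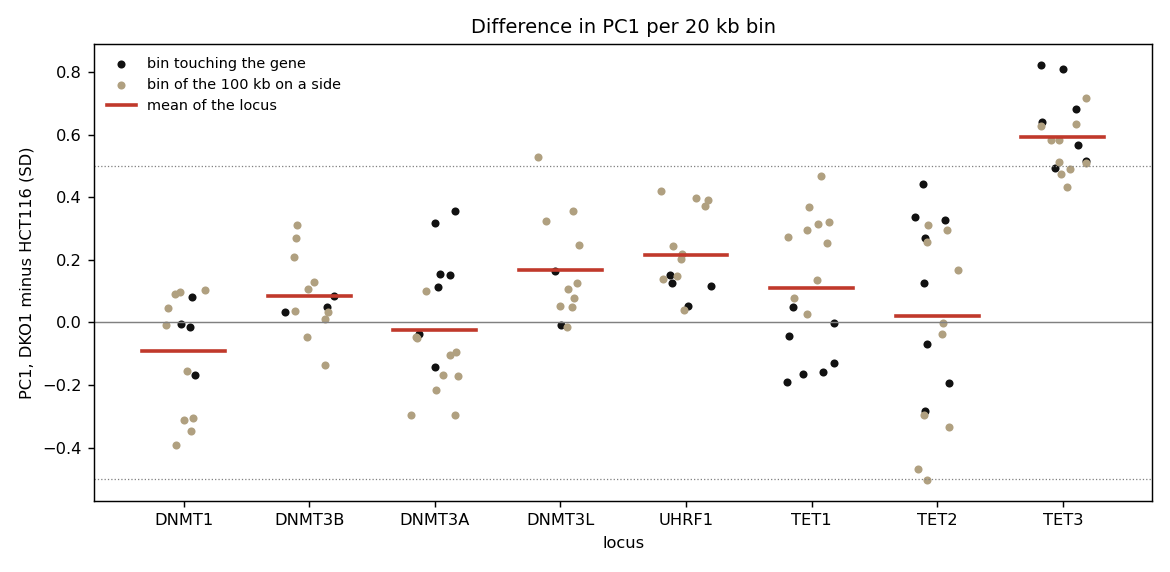
Difference in PC1, DKO1 minus HCT116, for each 20 kb bin of the 8 loci. Black points are bins that touch the gene, pale points are bins of the 100 kb on each side, red lines are the means of the loci, and dotted lines mark 0.5 and -0.5. All 17 bins of TET3 lie at or above 0.43, and the bins of the other loci lie mostly between the dotted lines.

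DNMT1, the maintenance methyltransferase disrupted in DKO1, lies on chromosome 19 at 10240001 to 10310000. Its 14 bins had PC1 between 0.58 and 1.23 in DKO1, with a median of 0.96, and between 0.92 and 1.24 in HCT116, with a median of 0.99. The ranges overlapped, and the spread over bins was wider in DKO1. The mean was 0.94 ± 0.21 in DKO1 and 1.03 ± 0.091 in HCT116 (SD over bins), a difference of -0.091. This difference was not even along the locus. In the 5 bins on the low-coordinate side it averaged -0.30, in the 4 bins touching the gene -0.026, and in the 5 bins on the high-coordinate side 0.066. The gene thus stood in a gradient that was steeper in DKO1, where PC1 averaged 0.71 on the low-coordinate side and 1.14 on the other, against 1.02 and 1.08 in HCT116. The A interval around DNMT1 began at 9920001 in DKO1 and at 9940001 in HCT116, and ended at 11700000 in both.

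DNMT3B, the de novo enzyme that is also disrupted in DKO1, lies on chromosome 20 at 31350001 to 31400000. PC1 in its 13 bins lay between 0.71 and 1.32 in DKO1, with a median of 1.24, and between 0.85 and 1.27 in HCT116, with a median of 1.11. The means were 1.17 ± 0.18 in DKO1 and 1.09 ± 0.13 in HCT116, a difference of 0.084 that was smaller than the spread over bins in either line. The 3 bins that touch the gene averaged 1.30 in DKO1 and 1.24 in HCT116. DNMT3B lay deep inside a long A interval, which ran for 7660 kb in DKO1 and 7640 kb in HCT116 and began at 30060001 in both. Both disrupted genes had all of their bins in both tracks, so no bin had been dropped there. The files hold no read counts, and the knockouts themselves cannot be checked with them.

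The zero of chromosome 20 bears on the DNMT3B value. The median PC1 of that chromosome was -0.13 in DKO1 and 0.31 in HCT116. With each chromosome's median subtracted the difference at DNMT3B became 0.52, in place of 0.084. On the other chromosomes that hold these genes the medians differed by between -0.23 on chromosome 10 and 0.24 on chromosome 21. Over all shared bins the median difference was 0.14 after this subtraction. Relative to the other windows of 13 bins on chromosome 20, DNMT3B stood above 83.2% of them in DKO1 and above 91.3% in HCT116, so its rank was lower in DKO1 although its deposited PC1 was slightly higher.

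DNMT3A, the other de novo enzyme, was not a target in DKO1 and lies on chromosome 2 at 25450001 to 25570000. In units of its own chromosome, its mean PC1 was the highest of the 8 loci in HCT116 and below that of TET3 alone in DKO1. Its 17 bins lay between 1.10 and 1.85 in DKO1, with a median of 1.54, and between 1.38 and 1.67 in HCT116, with a median of 1.49. The HCT116 bins fell inside the wider DKO1 range. The means were 1.48 ± 0.22 in DKO1 and 1.51 ± 0.082 in HCT116, a difference of -0.025. The 7 bins touching the gene averaged 1.68 in DKO1 and 1.55 in HCT116, while the differences on the sides averaged -0.15 and -0.12. Within the locus the gene thus averaged above both sides in DKO1, which had means of 1.28 and 1.42. In HCT116 it was also above them, but by less on the high-coordinate side, with means of 1.43 and 1.54. Farther out the DKO1 track was as high, at 1.87 in the bin 460 kb from the gene centre. The DKO1 maximum within the locus lay towards the far end of the gene from its start. There 3 bins averaged 1.76 in DKO1 and 1.49 in HCT116, against 1.59 and 1.62 in the 3 bins at the start.

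Among the cofactors, DNMT3L, the germline stimulator of the de novo enzymes, lies on chromosome 21 at 45660001 to 45690000. Its 12 bins had PC1 between 0.60 and 0.87 in DKO1, with a median of 0.72, and between 0.26 and 0.74 in HCT116, with a median of 0.60. The ranges overlapped, and 10 of the 12 bins were higher in DKO1. The means were 0.73 ± 0.076 in DKO1 and 0.56 ± 0.14 in HCT116. This difference of 0.17 turned to -0.068 when chromosome medians were subtracted, so its direction depends on where 0 is set. Within the deposited values, most of it came from the low-coordinate side, where HCT116 dipped to 0.26 and the difference averaged 0.32. The 2 bins that touch the gene differed by 0.078 on average. The locus sat in an A interval of 5660 kb with the same ends in both lines, at 42460001 and at 48120000, where the shared bins of the chromosome end or break off.

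UHRF1, the factor that recruits DNMT1, lies on chromosome 19 at 4900001 to 4970000. PC1 in its 14 bins lay between 0.81 and 1.11 in DKO1, with a median of 0.99, and between 0.60 and 0.96 in HCT116, with a median of 0.78. All 14 bins were higher in DKO1, although the ranges overlapped, whereas 50.6% of all shared bins were higher in DKO1. The means were 0.99 ± 0.088 in DKO1 and 0.77 ± 0.11 in HCT116, a difference of 0.22. The flanks differed more than the gene, by 0.31 and 0.20 against 0.11 in the 4 bins touching UHRF1. The higher PC1 extended over 600 kb, at 4560001 to 5160000. With 500 kb on each side the mean difference was 0.033. Of the windows of 14 bins on chromosome 19, 87.6% had a lower difference, and 26.0% a larger absolute one.

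DNMT1 and UHRF1 share chromosome 19 and so can be compared on the same scale. UHRF1 minus DNMT1 was 0.043 in DKO1 and -0.26 in HCT116. With 100 kb flanks the 2 loci thus had nearly the same mean PC1 in DKO1 and different means in HCT116. Their HCT116 bins overlapped, since UHRF1 reached 0.96 and DNMT1 began at 0.92. The order in HCT116 turned with 500 kb flanks, where the means were 0.77 at UHRF1 and 0.67 at DNMT1. With a 10 Mb running mean subtracted, the DKO1 means were 0.47 at UHRF1 and 0.67 at DNMT1, so the closeness depends on the setting. The gap of 0.043 in DKO1 is smaller than the SD over bins of either.

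TET3 had the largest difference of the 8 loci. This dioxygenase gene lies on chromosome 2 at 74210001 to 74340000. Its 17 bins had PC1 between 1.63 and 1.83 in DKO1, with a median of 1.72, and between 0.98 and 1.32 in HCT116, with a median of 1.14. Every DKO1 bin was above every HCT116 bin, but the bins are neighbours within a longer stretch. How often other windows of the chromosome separate in this way was not counted. The means were 1.73 ± 0.067 in DKO1 and 1.13 ± 0.088 in HCT116, a difference of 0.59 ± 0.11 (SD over bins). The difference was 0.65 in the 7 bins touching the gene and 0.55 and 0.56 on its sides, and it was 0.52 at the start of the gene and 0.77 at the other end. On chromosome 2, 8.62% of bins had a difference of at least 0.5.

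The change at TET3 belonged to a longer stretch of the chromosome. DKO1 was above HCT116 without a break from 73900001 to 75940000, over 2040 kb, with a mean difference of 0.62. TET3 lay 310 kb inside the low-coordinate end of that stretch. Just outside it on that side, the DKO1 track lay below the HCT116 track, as the profiles show. The A interval that holds TET3 was shorter in DKO1, with 2720 kb at 72740001 to 75460000, than in HCT116, with 6900 kb at 68300001 to 75200000. Among windows of 17 bins on chromosome 2, 9.58% had a larger absolute difference than TET3. TET3 stood above 97.3% of the windows in DKO1 and above 87.1% in HCT116. Without its 10 Mb surroundings, after a running mean was subtracted, the difference at TET3 was 0.43.

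DNMT3A and TET3 share chromosome 2, and their order differed between the lines. TET3 was above DNMT3A by 0.24 in DKO1, whereas in HCT116 the difference, TET3 minus DNMT3A, was -0.37. The difference between the lines was thus 0.62 larger at TET3 than at DNMT3A.

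**Figure D3:**
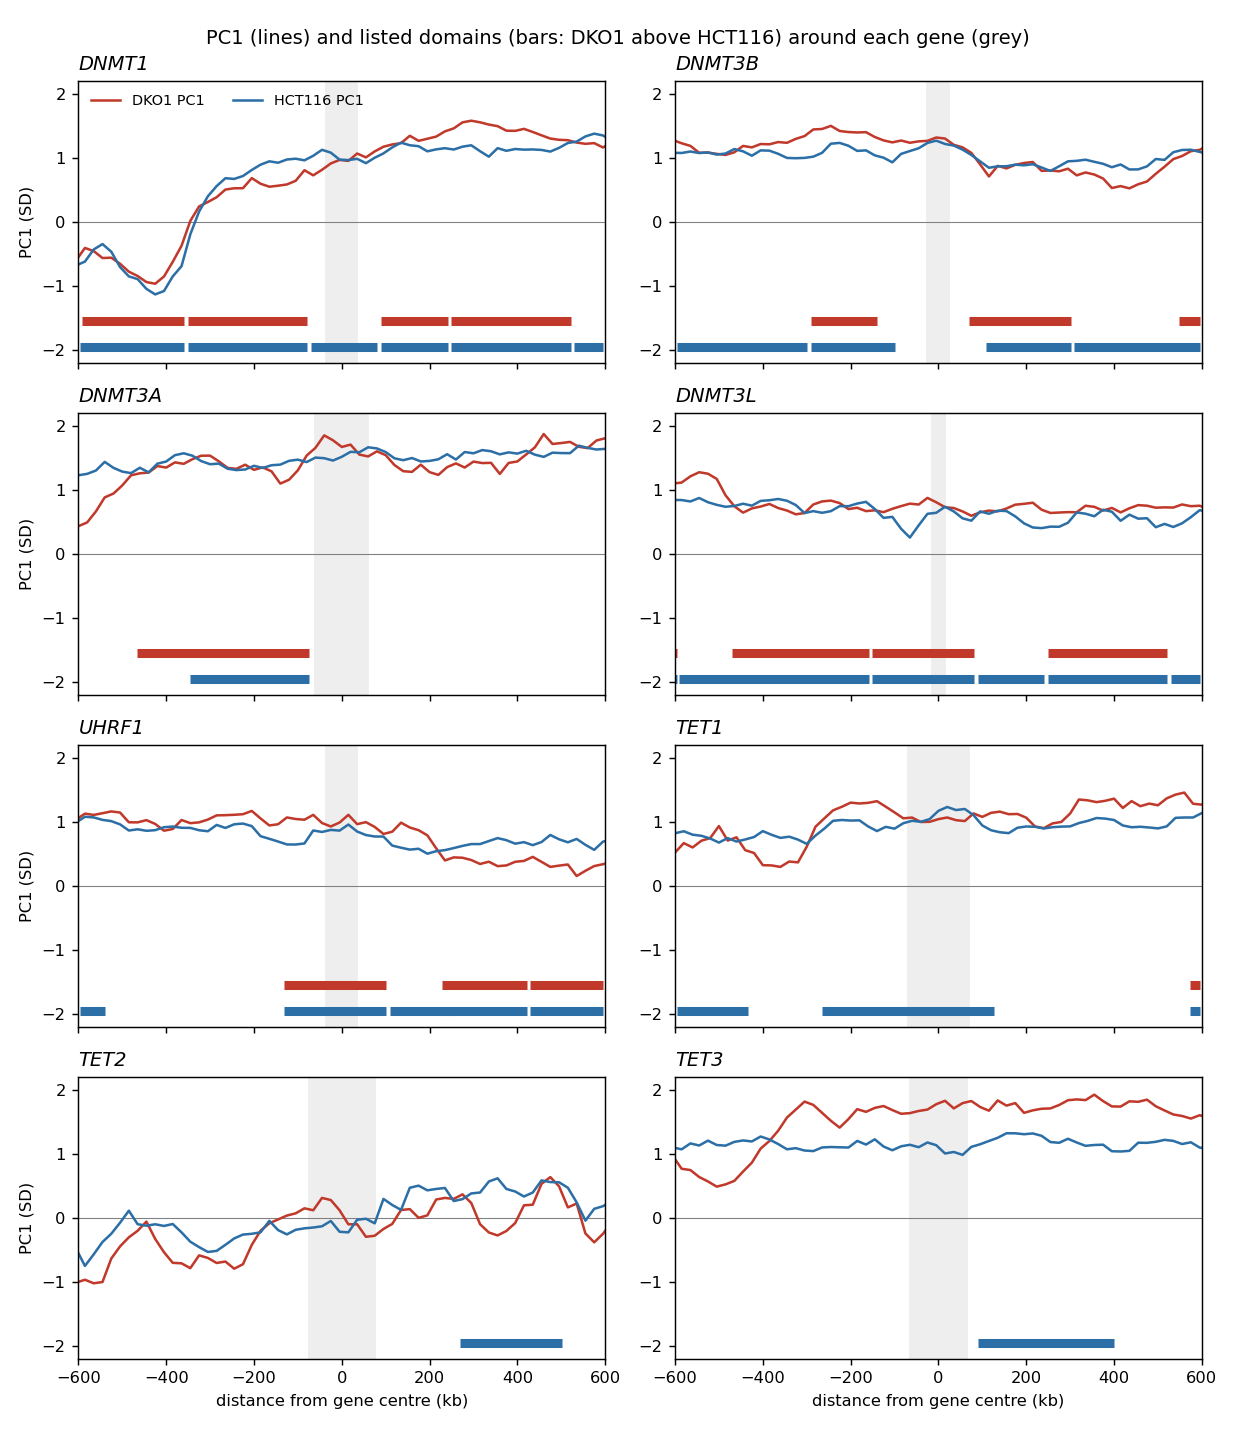
PC1 along 600 kb on each side of the centre of each gene, in SDs of the chromosome, with DKO1 in red and HCT116 in blue. Grey marks the gene, and bars at the bottom are the listed domains, DKO1 above HCT116. DKO1 has no bar over DNMT1 or TET1, where HCT116 has 1 each, and the DKO1 line lies above the HCT116 line all along TET3 and turns below it on the left.

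TET1, a dioxygenase that binds CpG through a CXXC domain, lies on chromosome 10 at 70320001 to 70460000. Its 17 bins had PC1 between 1.00 and 1.32 in DKO1, with a median of 1.08, and between 0.82 and 1.23 in HCT116, with a median of 0.98. The ranges overlapped. The means were 1.11 ± 0.098 in DKO1 and 1.00 ± 0.14 in HCT116, a difference of 0.11, but the gene and its flanks differed in opposite directions. In the 7 bins that touch TET1 the difference was -0.091, with means of 1.03 in DKO1 and 1.12 in HCT116. On the sides it was 0.30 and 0.21. In HCT116 the gene was a local maximum between flanks that both averaged 0.92, and in DKO1 it was a shallow minimum between flanks of 1.21 and 1.13. The lower PC1 in DKO1 covered 120 kb, at 70340001 to 70460000, which ends at the end of the gene. With chromosome medians subtracted the difference over the whole locus was 0.34.

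TET2 was the locus whose mean PC1 had a different sign in the lines, but which line was positive depended on the width taken. The gene lies on chromosome 4 at 106060001 to 106210000. Its 18 bins had PC1 between -0.29 and 0.31 in DKO1, with a median of 0.019, and between -0.26 and 0.50 in HCT116, with a median of -0.066. The means were 0.012 ± 0.17 in DKO1 and -0.0075 ± 0.23 in HCT116, and they differed by 0.019. With 200 kb on each side the means were -0.046 in DKO1 and 0.011 in HCT116, and with 500 kb they were -0.15 and 0.045, so that the direction turned. Positive PC1 was found in 10 of the 18 bins in DKO1 and in 5 in HCT116. All the bins of the 8 loci that changed sign were at TET2. They comprised 7 bins of B in HCT116 and A in DKO1, which are 5.74% of the 122 bins beside 4.99% of all shared bins, and 2 bins of A in HCT116 and B in DKO1, which are 1.64% beside 10.2%. All lie among the 18 bins of TET2, whereas 7.60% of the bins of chromosome 4 changed from B to A and 6.69% from A to B. Absolute values were low, since 0 of the 18 bins in DKO1 and 1 in HCT116 reached 0.5, against 69.5% and 65.6% of the bins of chromosome 4. The sign of a bin at TET2 therefore rests on small values. With the median of the chromosome subtracted, there were 7 bins of the 122 from B to A and 5 from A to B. The share over all shared bins was then 6.98% in each direction.

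The sign changes at TET2 were ordered along the gene. The 7 bins that were B in HCT116 and A in DKO1 were contiguous, at 106000001 to 106140000, and 4 of them touch the gene, at the end that holds its start. Their PC1 lay between 0.037 and 0.31 in DKO1 and between -0.26 and -0.047 in HCT116. The 4 gene bins at the start averaged 0.21 in DKO1 and -0.14 in HCT116, a difference of 0.34. The 4 gene bins at the other end averaged -0.19 in DKO1 and -0.088 in HCT116, and were B in both lines. The 2 bins of the opposite change, at 106220001 to 106260000, lay just past the far end of the gene, with PC1 of -0.17 and -0.094 in DKO1 and of 0.30 and 0.20 in HCT116. The A interval at the middle of TET2 in DKO1 was 140 kb long. In HCT116 the middle of the gene lay in a B interval of 560 kb, at 105660001 to 106220000.

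The position of each locus within its chromosome was also compared by rank, which does not depend on the zero or the scale of PC1. The rank is the share of windows with the same number of bins on the same chromosome that had a lower mean. Over the 8 loci its median was 83.1% in DKO1 and 86.1% in HCT116. DNMT1 ranked above 79.7% of windows in DKO1 and 87.9% in HCT116, and DNMT3A above 93.5% and 98.9%. UHRF1 ranked higher in DKO1, at 83.0% against 70.1% in HCT116, as did DNMT3L at 66.6% against 58.0%. TET1 had nearly the same rank, with 85.5% in DKO1 and 85.1% in HCT116, and TET2 ranked near the middle of its chromosome, with 51.9% and 52.8%. The loci of DNMT1, DNMT3A, DNMT3B and TET2 ranked lower in DKO1, and those of DNMT3L, UHRF1, TET1 and TET3 ranked higher, TET1 and TET2 only slightly. How many other windows ranked lower in DKO1 was not counted. The direction also depends on the measure. With chromosome medians subtracted, PC1 was higher in DKO1 at DNMT1 by 0.036, at DNMT3B by 0.52 and at DNMT3A by 0.10. With 1 map per line these ranks are descriptions.

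**Figure D4:**
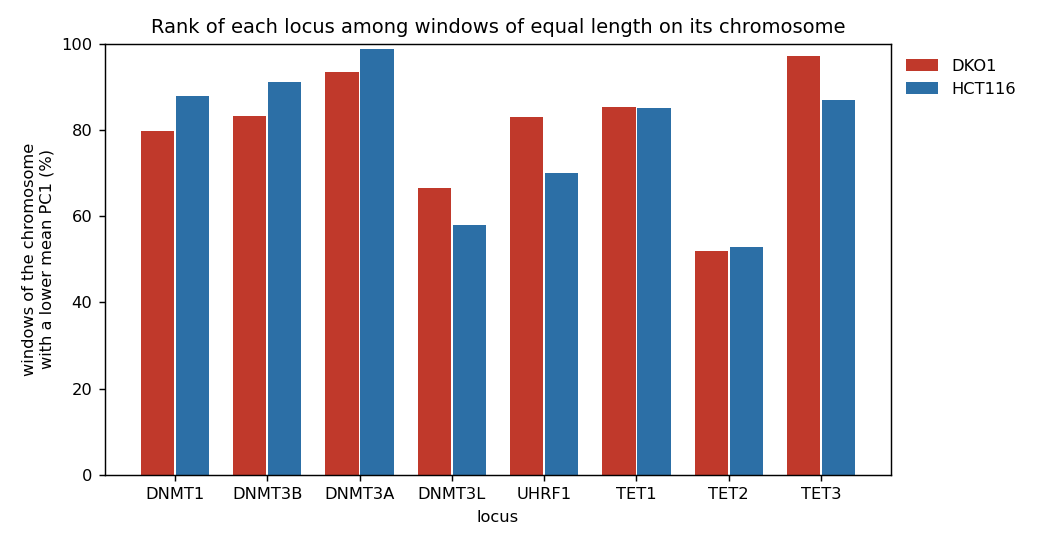
Share of windows with the same number of bins on the same chromosome whose mean PC1 was lower than that of the locus, in percent, with DKO1 to the left of HCT116. Bars start at 0. The bars of DNMT1, DNMT3B and DNMT3A are lower in DKO1, those of UHRF1 and TET3 are higher, and those of TET1 and TET2 are nearly equal.

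Domains touching the loci were fewer in DKO1 than in HCT116. There were 6 in DKO1 and 12 in HCT116, out of lists of 1823 and 4289 domains. They covered 700.0 kb of the 2360 kb of the loci in DKO1 (29.7%) and 1290 kb in HCT116 (54.7%). Of all shared bins, 18.5% lay inside a DKO1 domain and 44.1% inside an HCT116 domain. The number of domains a caller lists depends on the depth of the map, which is unknown here. Of the 6 DKO1 domains 5 were matched by an HCT116 domain at a reciprocal overlap of at least 80%, against 83.1% of the whole list. Of the 12 HCT116 domains 6 were matched in DKO1, against 35.3% of the whole list. Of the 12 boundaries of these DKO1 domains 11 were found within 40 kb in HCT116, beside 91.9% of all DKO1 boundaries, and of the 20 of the HCT116 domains 15 were found in DKO1, beside 44.7%. No boundary fell inside any of the 8 genes in either line. The genes span 760 kb in all, while the lists hold 3040 boundaries in DKO1 and 6366 in HCT116 over the whole genome. That length is short, so the absence says little about the genes.

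A domain held the whole gene at 2 loci in DKO1 and at 4 in HCT116, and no gene was split. Over the genome, 18.5% of shared bins lay inside a DKO1 domain and 44.1% inside an HCT116 domain. These few counts therefore do not set the genes apart. UHRF1 lay in a domain at 4800001 to 5040000, and DNMT3L in one at 45520001 to 45760000, and each was listed with the same ends in both lines. DNMT1 lay in an HCT116 domain of 160 kb at 10200001 to 10360000 that had no counterpart in DKO1. Its neighbours on both sides, at 9920001 to 10200000 and at 10360001 to 10520000, were listed identically in both lines. The space that DNMT1 occupies was thus bounded at the same 2 positions in DKO1 without being listed as a domain. PC1 in that space averaged 0.94 in DKO1 and 1.01 in HCT116.

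TET1 lay in an HCT116 domain of 400 kb at 70120001 to 70520000. No DKO1 domain touched the locus, and the nearest one, beyond the gene's high-coordinate end, began at 70960001. TET3 lay outside domains in both lines, but an HCT116 domain at 74360001 to 74680000 began 20 kb past the gene and overlapped no DKO1 domain. Mean PC1 over that domain was 1.77 in DKO1 and 1.21 in HCT116. The nearest DKO1 domain was 540 kb from TET3. No domain touched the TET2 locus in either line, and the nearest was 2430 kb from the gene in DKO1 and 190 kb in HCT116. 

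DNMT3B and DNMT3A lay between or beside domains in both lines. At DNMT3B a domain on the high-coordinate side began at 31440001 in DKO1 and at 31480001 in HCT116 and ended at 31680000 in both. On the other side an HCT116 domain at 31080001 to 31280000 entered the 100 kb flank, while the DKO1 domain that matched it, at 31080001 to 31240000, ended 10 kb short of it and so was not counted. At DNMT3A a domain ended at 25440000 in both lines, 10 kb from the gene. It began at 25040001 in DKO1 and at 25160001 in HCT116, so that their overlap was 70% and they were not matched. Additional HCT116 domains of 160 kb abutted the DNMT3L and UHRF1 domains, at 45760001 to 45920000 and 5040001 to 5200000, and neither was matched in DKO1.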

How the data were processed

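Hi-C was analysed in 3 libraries of DKO1 and 3 of HCT116, grouped by their titles. Per the labels, all replicates of a line share the same files, which were taken as pooled. The deposited PC1 score is given per 20 kb bin, and the deposited domain starts and ends (the other unit used) lie on a 40 kb grid with no score. HiC-Pro, HOMER 4.6, hg19 and GRCh37 appear in the submitters' processing notes without roles, and the domain caller and read filters were not given in these sources. Both tracks were joined on chromosome and start. PC1 above 0 was called A. All 8 genes were named, at the interval rounded to 10 kb. Members and lists were chosen with earlier results of these data known. Other genes of the pathway were not analysed here, since hg19 positions were used for the 8 members only. Depth is unknown, so no interval is given. Domains were matched at 80% reciprocal overlap and boundaries at 40 kb. Flank width, centring, smoothing, PC1 minimum, overlap and tolerance were varied. Functions were tested on simulated data. Python 3.11.15, numpy 2.4.6 and pandas 2.3.3 were used.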

Additional observations from a re-analysis of the deposited data

How the results depend on the processing

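No paired analysis was possible because the replicates share pooled files, and for the same reason none could be left out. TET3 had the largest difference in PC1 under every setting tried, with its lowest value of 0.39 with 500 kb flanks and values of 0.72 with chromosome medians and 0.43 with a 10 Mb running mean subtracted. A locus difference counted as moved when it shifted by more than its SD over bins. Of 64 recomputed locus differences 57 shifted by less. This tally does not show that signs were kept, since the SD exceeded the difference at all loci but TET3, UHRF1 and DNMT3L. At TET2, where the SD was 0.30, a turn from 0.019 to -0.20 did not count as moved. Subtracting chromosome medians turned DNMT3L to -0.068 and turned the small differences of DNMT1 (to 0.036) and DNMT3A (to 0.10). The 10 Mb running mean turned DNMT1 (to 0.032) and DNMT3B (to -0.019). The 1 locus whose compartment differed, TET2, became 0 loci under both of these settings. With 200 kb and 500 kb flanks TET2 differed in the opposite direction, at -0.057 and -0.20, so that 7 loci were in A in DKO1 and 8 in HCT116. Flank width also turned DNMT3A (to 0.13 without flanks and 0.068 with 50 kb), TET1 (to -0.091 without flanks) and DNMT1 (to 0.060 with 500 kb). Bins switched from A to B were 2 of 122, and 0 of 42 without flanks and 9 of 442 with 500 kb flanks, beside 10.2% of all shared bins. They were 5 of 122 with chromosome medians subtracted (6.98% of all), 4 of 122 after smoothing over 5 bins (10.0% of all) and 0 of 101 with an absolute PC1 of at least 0.5 in both lines (1.51% of all). Bins switched from B to A were 7 of 122, and 4 of 42 without flanks (4.99% of all) and 0 of 101 with that minimum (0.82% of all). All of these bins were at TET2, apart from 1 bin from B to A with 500 kb flanks and 3 with the 10 Mb running mean subtracted. Counting only domains that touch the gene gave 2 in DKO1, both matched, and 4 in HCT116, of which 2 were matched. Flanks of 50 kb gave 5 domains in DKO1 and 7 in HCT116, and flanks of 200 kb gave 9 and 15, so the contrast in number depends on flank width. No entry over 2 Mb touched a locus.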
